A study of Mus musculus with 11 samples.

Results

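The mitochondrially encoded transcripts were taken as all rows of the count table whose name begins with mt-. There were 37 of them among 50600 rows, namely 13 protein coding genes, 2 ribosomal RNAs and 22 transfer RNAs. All 37 were found on chromosome M in GENCODE M21, the mouse gene annotation on the build GRCm38. The 13 coding genes and both ribosomal RNAs had counts in every library and passed the filter on low counts, and the 22 transfer RNA rows held 0 counts in all 11 libraries.

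The RNA came from C57BL/6 mice operated on the day of birth (P0) and collected on postnatal day 3 (P3) or 7 (P7). In pulmonary artery banding (PAB) a thread tied around the pulmonary artery narrows it, so that the right ventricle pumps against a raised pressure, and sham animals had the same chest surgery without the tie. There were 3 libraries of P3 sham, 3 of P3 PAB, 3 of P7 sham and 2 of P7 PAB, with 19274045 to 26820228 counts each. The tissue is called heart in the labels and ventricles in the study's methods, so right and left ventricle were not measured apart. The labels do not say how many animals a library holds, so the p-values below measure only the spread between these libraries.

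The mitochondrial genome of the mouse is a small circle present in many copies per cell. Its heavy and light strands are each transcribed as a long RNA that is cut, mostly at the transfer RNAs, into single messages. The 13 proteins are core subunits of the respiratory chain. Complex I takes electrons from NADH, complex III passes them to cytochrome c, complex IV hands them to oxygen, and complex V uses the proton gradient to make ATP. The remaining subunits, the polymerase, the ribosome proteins and the transfer RNA synthetases are encoded in the nucleus and imported. Heart muscle is among the tissues richest in mitochondria, and in the days after birth it turns from glycolysis to fatty acid oxidation.

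Of the 13 coding genes, 7 had a near-identical neighbour in the nuclear genome that the table counts as a row of its own. These 7 unprocessed pseudogenes lie side by side on the minus strand of chromosome 1 from 24611535 to 24616197, a stretch of 4663 bases. Their aligned parts span 4653 bases of chromosome M, from position 6390 to 11042. The pseudogenes pair mt-Co1 with Gm29216, mt-Co2 with Gm28661, mt-Atp6 with Gm10925, mt-Co3 with Gm28437, mt-Nd3 with Gm28438, mt-Nd4l with Gm10222 and mt-Nd4 with Gm28439. Over 4140 aligned bases the 7 pairs held 2 mismatches, and 5 pairs held none. The alignment of Gm29216 begins at its base 10, so its earlier bases are not covered. The 2 mismatches are shown because they are the single bases by which a read could be told apart within the aligned parts. Each is in capitals in the reading direction of the gene.

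mt-Co1 (chrM:6390-6423, plus strand): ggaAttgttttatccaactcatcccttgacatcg
Gm29216 (chr1:24616155-24616188, minus strand): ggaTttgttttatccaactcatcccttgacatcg
mt-Nd3 (chrM:9459-9491, plus strand): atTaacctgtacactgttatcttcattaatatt
Gm28438 (chr1:24613087-24613119, minus strand): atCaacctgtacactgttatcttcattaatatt

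Counted from 1 at the first base of the mt gene, and with the base of the mt gene given first, these are A1066T in the pair of mt-Co1 and T3C in the pair of mt-Nd3. The copy of mt-Co1 covers 31.3% of the gene and that of mt-Nd4 63.6%, while the other 5 copies cover at least 99% of theirs. The first 60 bases of the 3 genes whose rows differed most between P7 PAB and P7 sham are printed next. They have no base in capitals because the gene and its chromosome 1 copy share every letter.

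mt-Co2 and Gm28661 (chrM:7013-7072, plus strand; chr1:24615506-24615565, minus strand): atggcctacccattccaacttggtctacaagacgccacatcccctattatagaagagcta
mt-Atp6 and Gm10925 (chrM:7927-7986, plus strand; chr1:24614592-24614651, minus strand): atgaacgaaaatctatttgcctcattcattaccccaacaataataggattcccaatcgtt
mt-Co3 and Gm28437 (chrM:8607-8666, plus strand; chr1:24613912-24613971, minus strand): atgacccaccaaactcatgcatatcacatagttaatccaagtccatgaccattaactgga

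A read that lies wholly inside such a stretch fits both places equally well, and which row received it is not settled by its letters. The count table nevertheless divided the reads of each pair, and the division differed with age and, at P7, with the operation. Of the counts of mt-Co3 plus Gm28437, the mt row held 47.6%, 47.2% and 47.4% in the P3 sham libraries and 47.4%, 48.0% and 46.8% in the P3 PAB libraries. The same share was 3.74%, 2.89% and 2.64% in the P7 sham libraries and 19.3% and 19.7% in the P7 PAB libraries. The P3 groups overlapped, and both P7 groups lay apart from them and from each other.

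Pairs without a mismatch did not all shift the same way with age. The mt-Co2 row held 29.2% to 31.5% of its pair at P3, 2.12% ± 0.363 (SD, n = 3) in P7 sham and 14.3% to 14.8% in P7 PAB. The mt-Atp6 row held 37.0% to 40.2% at P3, 3.57% to 4.63% in P7 sham and 11.8% to 11.9% in P7 PAB. For mt-Nd4l the P3 libraries were the lowest, with 20.6% to 23.4% at P3, 39.0% to 41.8% in P7 sham and 55.5% to 58.8% in P7 PAB.

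The 2 pairs with a mismatch, and the pair of mt-Nd4, were divided as follows. The mt-Nd3 row held 46.6% to 51.4% at P3, 17.2% to 20.1% in P7 sham and 23.7% to 25.0% in P7 PAB. The mt-Co1 row, most of which lies outside the copy, held 86.2% to 91.4% in all libraries. The mt-Nd4 row held 97.9% to 99.6%, although Gm28439 matches its first 876 bases without a mismatch. In each of the 7 pairs no P7 PAB library overlapped a P7 sham library in this share, but the direction was not the same in all. The mt-Co1 row held 87.0% and 86.2% in P7 PAB, below the 87.4% to 87.5% of P7 sham. In the other pairs the mt row held the larger share in P7 PAB. No test was run on these shares, and why identical sequence was divided differently between groups was not tested.

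**Figure D1:**
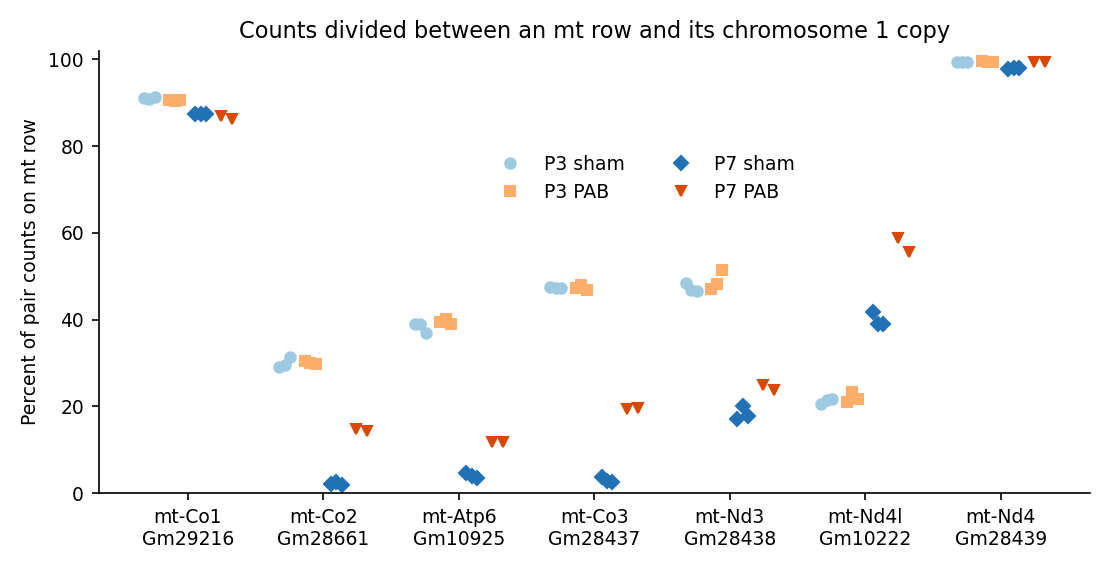
Each point is 1 library (3 of P3 sham, 3 of P3 PAB, 3 of P7 sham, 2 of P7 PAB), and the vertical axis is the percentage of a pair's counts that the table placed on the mt row rather than on the chromosome 1 copy named beneath it. For mt-Co2, mt-Atp6 and mt-Co3 the P7 sham points lie below 5% and the P7 PAB points between 11.8% and 19.7%, whereas the P3 points of both operations lie together.

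For this reason every comparison was made both with the mt row alone and with the counts of its nuclear copies added to it. The sum does not depend on how reads counted once were divided between the rows of a pair. It would still depend on whether reads that fit both places were dropped or counted on both rows, which was not tested. It would also include any RNA transcribed from the chromosome 1 copies themselves. In all, 16 nuclear rows of the table resembled an mt gene over at least 100 bases at 90% identity or more. Outside chromosome 1 the highest were Gm13340, like mt-Co1, at 5.80 to 28.9 CPM, counts per 1e6 counts, and Gm13341, like mt-Co2, at 0.304 to 5.32 CPM. CPM are given throughout on the effective library sizes of the TMM normalization. The copies held 3.05% to 3.42% of all counts at P3, 8.52% ± 0.0870 (SD, n = 3) in P7 sham and 7.55% to 7.86% in P7 PAB. The mt gene mt-Atp8 lies within the matching interval of chromosome M but has no annotated partner on chromosome 1, and it overlaps mt-Atp6 by 43 bases on the same strand. That overlap is shown in capitals because reads inside it fit both genes.

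mt-Atp8 and mt-Atp6 (chrM:7917-7979, plus strand): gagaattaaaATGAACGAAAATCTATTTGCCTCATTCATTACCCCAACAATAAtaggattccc

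The counts on mt rows made up 11.4% to 13.1% of a library at P3, 18.1% ± 0.0960 (SD, n = 2) in P7 PAB and 21.1% to 22.2% in P7 sham. With the nuclear copies added the share was 14.6% to 15.7% in P3 sham, 14.5% to 16.5% in P3 PAB, 25.7% to 25.9% in P7 PAB and 29.5% to 30.8% in P7 sham. On both scales the P3 groups overlapped and the P7 groups did not. Over whole tissue, more mitochondrial RNA per cell and a larger share of cells rich in mitochondria cannot be told apart.

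**Figure D2:**
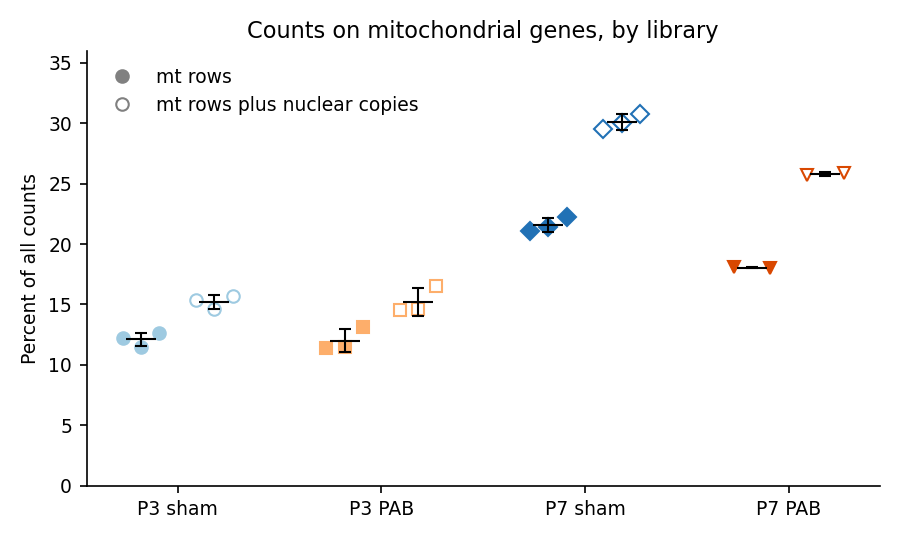
Points are libraries, filled for the 37 mt rows and open for the mt rows plus their nuclear copies, and the vertical axis is the percentage of all counts of the library. Black bars show the mean and SD of each group (n = 3, 3, 3 and 2). The P7 PAB libraries lie above all P3 libraries and below all P7 sham libraries in both measures.

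The transfer RNA rows gave no reads on which a comparison could rest. They are 59 to 75 bases long, 14 on the heavy strand transcript and 8 on the light strand transcript. A count of 0 allows up to 3 counts, which is 0.112 to 0.156 CPM of a library's total, as a counting limit. The library preparation and any selection by size or by a poly(A) tail are not given in the sources used here, so nothing follows for transfer RNA levels in the tissue. The ribosomal RNAs mt-Rnr1 (12S) and mt-Rnr2 (16S), which form the core of the mitochondrial ribosome, held 1.01% to 1.57% of the mt counts.

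The change with age after the sham operation was addressed by P7 sham against P3 sham. A call required a change of 1.5-fold or more together with an adjusted p (Benjamini-Hochberg, over all tested genes) no higher than 0.05 in edgeR's quasi-likelihood test. With the copies added, all 15 tested mt genes were called higher at P7, from 1.86-fold (mt-Co3) to 4.19-fold (mt-Nd6), with a median log2 change of 1.43. Over all 15798 genes of that fit the median was 0.0010, 5.58% were called higher and 5.72% lower.

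With each mt row alone, 11 were called higher, 3 lower and 1 in neither direction, where 5.62% and 5.73% of all 15808 genes were called. The 3 that fell were mt-Co3 (log2 -3.04 ± 0.11 SE), mt-Co2 (-2.67 ± 0.10) and mt-Atp6 (-1.82 ± 0.10). With their copies added the same genes rose, by 0.90 ± 0.06, 1.16 ± 0.06 and 1.42 ± 0.07 on the log2 scale. The direction of these 3 genes therefore depended on whether the rows of the copies were added.

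Complex I is the complex with most mitochondrial subunits, 7, and all 7 rose with the copies added. The mt-Nd6 gene is the one coding gene on the light strand, and its level was 1872, 1649 and 2055 CPM in P3 sham and 7517, 7677 and 8152 CPM in P7 sham (log2 2.07 ± 0.10, adjusted p = 3.0e-09, edgeR). It has no copy on chromosome 1, and it overlaps mt-Nd5 on the other strand by 14 bases. The strand setting of the counting is not given in the sources used here, so mt-Nd6 reads and reads from the opposite strand cannot be told apart. The mt-Nd2 gene, whose protein lies in the membrane arm of the complex, rose from 4585, 4116 and 4137 CPM to 15587, 14693 and 15521 CPM (log2 1.83 ± 0.08, adjusted p = 3.0e-09, edgeR). The mt-Nd3 row alone changed by log2 0.27 ± 0.08, below the fold threshold, and by 1.64 ± 0.06 with Gm28438 added.

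Complex III has 1 mitochondrial subunit, cytochrome b. The mt-Cytb gene was at 13380.3, 12084 and 12976 CPM in P3 sham and at 34380.0, 33260.2 and 36189.8 CPM in P7 sham (2.70-fold, adjusted p = 4.7e-09, edgeR). Of complex IV, whose catalytic core is formed by the proteins of mt-Co1, mt-Co2 and mt-Co3, mt-Co1 with its copies stood at 46523, 45301 and 48087 CPM at P3 and at 99051, 98835 and 104016 CPM at P7 (2.16-fold). This was the highest level of any mt gene in both groups. Of complex V, mt-Atp8 rose 3.67-fold and mt-Atp6 with its copies 2.68-fold, and both encode parts of the membrane sector of ATP synthase. The ribosomal RNAs rose 2.69-fold (mt-Rnr1) and 2.37-fold (mt-Rnr2).

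**Figure D3:**
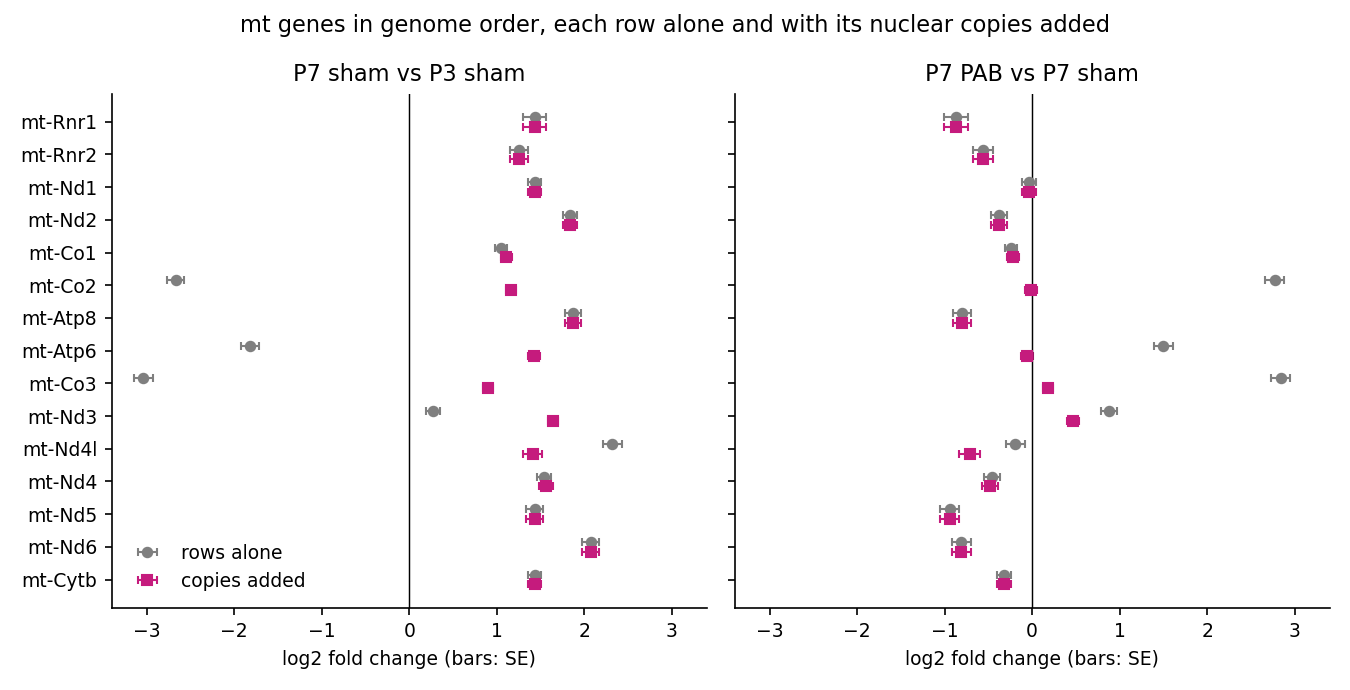
Horizontal axes give the log2 fold change with its standard error for the 15 tested mt genes in genome order, on the left for P7 sham against P3 sham (n = 3 and 3) and on the right for P7 PAB against P7 sham (n = 2 and 3). Grey circles are the mt rows alone and magenta squares the sums with nuclear copies. The symbols part for mt-Co2, mt-Atp6, mt-Co3, mt-Nd3 and mt-Nd4l, and with copies added every gene on the left lies to the right of 0.

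The effect of banding was addressed at P7 by P7 PAB against P7 sham. With the copies added, 5 of the 15 mt genes were called lower in P7 PAB and 0 higher, where 8.58% of all genes were called lower and 9.61% higher. The 5 were mt-Nd5, mt-Nd6 and mt-Nd4l of complex I, mt-Atp8 of complex V and the ribosomal RNA mt-Rnr1. For mt-Atp8 this fit held the row alone, because mt-Atp8 has no copy row. Any mt-Atp8 reads placed on chromosome 1 are not in its value, and whether there were such reads was not tested. Without the fold threshold, 10 of the 15 were lower and 2 higher at an adjusted p of at most 0.05, against 22.1% lower and 22.8% higher over all genes. The median log2 change of the 15 was -0.38, and that of all genes was -0.0035.

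The mt-Nd5 gene encodes the largest mitochondrial subunit of complex I. It was at 26131, 26877 and 31127 CPM in P7 sham and at 14620.3 and 14678 CPM in P7 PAB (log2 -0.94 ± 0.11, adjusted p = 1.7e-05, edgeR). The P7 PAB libraries lay below every P7 sham library and above the P3 libraries, which ranged from 8918 to 11454 CPM. On the opposite strand next to it, mt-Nd6 was at 7517, 7677 and 8152 CPM in P7 sham and at 4489.9 and 4401 CPM in P7 PAB (log2 -0.81 ± 0.11, adjusted p = 4.0e-05, edgeR).

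Neither mt-Nd5 nor mt-Nd6 has a chromosome 1 copy. The mt-Atp8 gene, which lies inside the chromosome 1 match but has no copy row that could be added, was at 4579, 4753 and 4856 CPM in P7 sham and at 2637 and 2782 CPM in P7 PAB (log2 -0.80 ± 0.10, adjusted p = 1.6e-05, edgeR). The 12S ribosomal RNA mt-Rnr1 was at 541, 728 and 758 CPM in P7 sham and at 375 and 366 CPM in P7 PAB (log2 -0.87 ± 0.14, adjusted p = 1.9e-04, edgeR). Relative to the mean, its P7 sham libraries spread more widely than those of the coding genes with copies added, with an SD of 118 CPM around a mean of 676 (n = 3).

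Without a correction for gene length, the mt-Nd4l gene was called lower only as a sum. With the length trend described below removed, its row alone was called lower too (-0.69, adjusted p = 3.8e-04, edgeR). Uncorrected, the row alone was at 1587, 1423 and 1752 CPM in P7 sham and 1412 and 1371 CPM in P7 PAB (log2 -0.19 ± 0.11, adjusted p = 0.19, edgeR). With Gm10222 added it was at 3801, 3652 and 4497 CPM and at 2400.2 and 2469 CPM (log2 -0.71 ± 0.12, adjusted p = 2.2e-04, edgeR). Its neighbour mt-Nd4, which it overlaps by 7 bases, changed by -0.48 ± 0.09 and was not called.

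The rows mt-Co3, mt-Co2, mt-Atp6 and mt-Nd3 alone were called higher in P7 PAB, 4 in all, and 4 other rows lower, where 9.63% of all genes were called higher and 8.59% lower. The mt-Co3 row alone was at 1006, 781 and 708 CPM in P7 sham and at 5783 and 6123 CPM in P7 PAB, a 7.16-fold difference. With Gm28437 added it was at 26884, 27017 and 26795 CPM and at 29975 and 31162 CPM (log2 0.18 ± 0.06, adjusted p = 0.027, edgeR). The groups did not overlap in either measure, but the sum differed 1.14-fold.

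The mt-Co2 row alone was at 627, 739 and 539 CPM in P7 sham and at 4547 and 4123 CPM in P7 PAB, a 6.83-fold difference. With Gm28661 added it was at 30137, 29595 and 30388 CPM and at 30726 and 28832 CPM (log2 -0.01 ± 0.07, adjusted p = 0.9, edgeR), and the groups overlapped. The mt-Atp6 row alone was 2.82-fold higher, at 1096, 872 and 815 CPM in P7 sham and at 2632 and 2602 CPM in P7 PAB. Its sum with Gm10925 was at 23688, 22354 and 22873 CPM and at 22099 and 21964 CPM (log2 -0.06 ± 0.07, adjusted p = 0.54, edgeR).

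Of the 4 rows higher in P7 PAB, mt-Nd3 kept the largest difference as a sum. Its row alone was at 469, 535 and 491 CPM in P7 sham and at 924 and 907 CPM in P7 PAB. With Gm28438 added it was at 2726, 2663 and 2739.7 CPM and at 3698 and 3825 CPM (log2 0.47 ± 0.07, adjusted p = 7.0e-05, edgeR), which is 1.39-fold and below the fold threshold. The remaining genes changed by between -0.56 ± 0.11 (mt-Rnr2) and -0.04 ± 0.08 (mt-Nd1) on the log2 scale. Among them mt-Nd1, of the membrane arm of complex I, was at 26144, 23781 and 23431 CPM in P7 sham and 25171 and 22422 CPM in P7 PAB, and its groups overlapped.

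**Figure D4:**
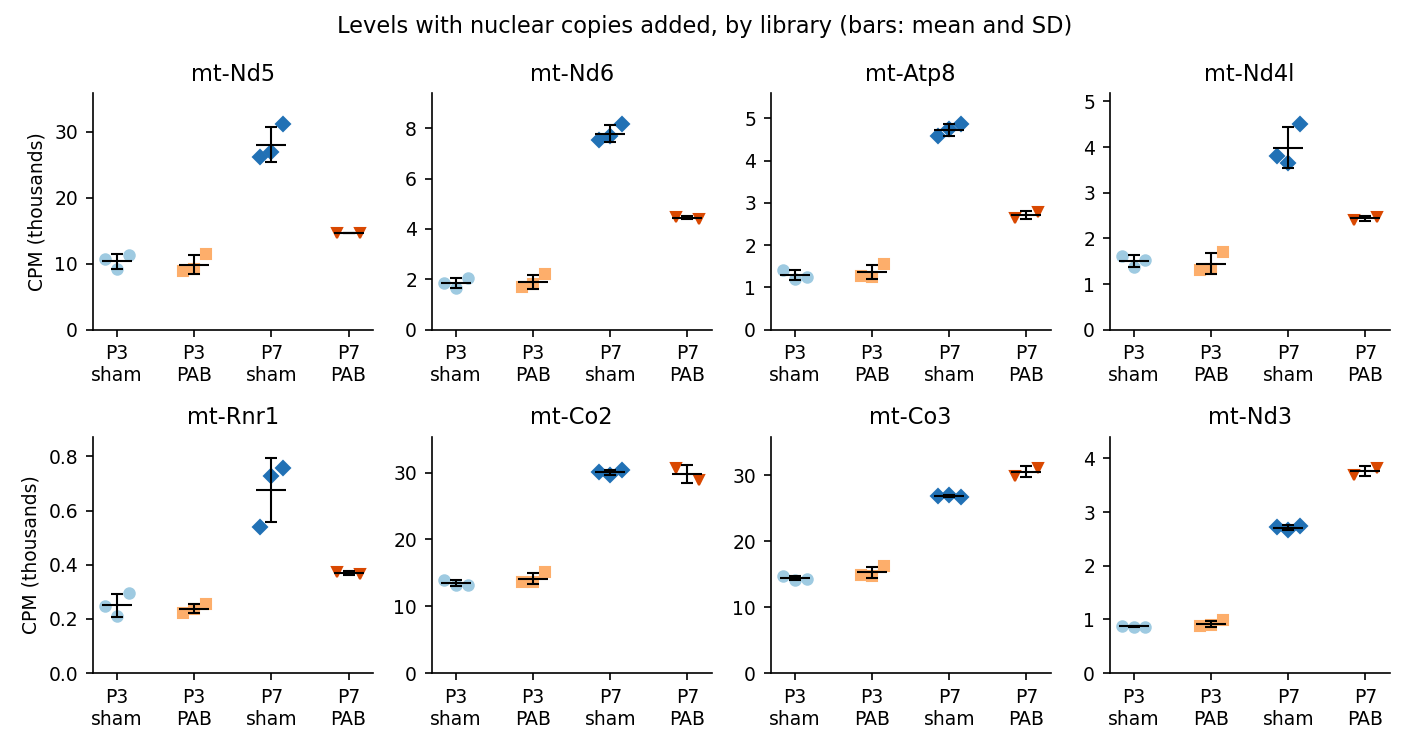
Each panel gives the level of 1 mt gene with its nuclear copies added, in CPM divided by 1000 with the axis starting at 0, for every library of the 4 groups, with the mean and SD as black bars (n = 3, 3, 3 and 2). In mt-Nd5, mt-Nd6, mt-Atp8, mt-Nd4l and mt-Rnr1 the P7 PAB points lie between the P3 and the P7 sham points, in mt-Co2 they lie with P7 sham, and in mt-Co3 and mt-Nd3 they lie above.

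The P7 groups also differed in a trend with gene length over all genes. Relative to the mean of all libraries, the slope of log2 CPM per doubling of gene length was -0.159 and -0.149 in P7 PAB and between -0.031 and 0.069 in the other 9 libraries. With that trend removed from each library, the 5 genes stayed called, mt-Nd5 at -1.22 and mt-Nd6 at -1.26, and 9 of the 15 mt genes were called lower with copies added, where that fit called 7.00% of all genes lower and 6.24% higher. Under the same removal the sum of mt-Nd3 went from 0.47 to -0.01 and that of mt-Co3 from 0.18 to -0.23. The mt-Nd3 row alone went from 0.88 to 0.38 and was no longer called. All 3 P7 sham libraries and neither P7 PAB library had Xist, the RNA of the inactive X chromosome, above 100 CPM, so that class and the operation cannot be told apart within P7. With the class as a term, estimated from the 3 P3 sham libraries, of which 1 was above, mt-Nd4l lost its call (-0.55, adjusted p = 0.065, edgeR).

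At P3 the operations were not told apart by any mt gene. Of the 15, 0 were called in either direction, with or without copies, where edgeR called 0.108% of all genes higher and 0.0190% lower. At an unadjusted p of at most 0.05 the number was also 0, and DESeq2, run on the rows alone, called 0. With copies added the log2 changes ran from -0.08 (mt-Rnr1) to 0.08 (mt-Co3), with standard errors of 0.06 to 0.12. The mt-Nd5 gene, lower at P7, stood at 10706, 9142 and 11291 CPM in P3 sham and at 8918, 9245 and 11454 CPM in P3 PAB.

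Age within the banded hearts was addressed by P7 PAB against P3 PAB. With copies added, 14 of the 15 mt genes were called higher and 0 lower, where 9.49% of all genes were called higher and 8.20% lower. The changes ran from log2 0.57 ± 0.11 (mt-Nd5, not called) to 2.03 ± 0.07 (mt-Nd3). With the rows alone 11 were called higher and 0 lower, where the background was 9.50% and 8.20%, and the rows of mt-Atp6 (-0.44 ± 0.11) and mt-Co3 (-0.28 ± 0.11) had negative values. With total count scaling, which called 4.05% of all genes higher and 19.4% lower, the number was 11 higher and 0 lower, and mt-Rnr1 (0.39), mt-Rnr2 (0.50) and mt-Nd4l (0.50) were no longer called. In sham hearts, which share no library with this comparison, mt-Nd5 changed by 1.43 ± 0.10 and mt-Nd3 by 1.64 ± 0.06. With the length trend removed, where 6.14% of all genes were called higher and 7.30% lower, 6 of the 15 sums were called higher, namely mt-Nd1, mt-Nd2, mt-Nd3, mt-Nd4, mt-Atp6 and mt-Cytb.

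Whether banding acted differently at the 2 ages was tested by the interaction of age and operation, in which 25.9% of all genes passed an adjusted p of 0.05 in both fits. With copies added 11 of the 15 mt genes passed, 10 of them with a negative value, which means a lower level in PAB relative to sham at P7 than at P3. The largest were mt-Atp8 (-0.88 ± 0.13), mt-Nd5 (-0.86 ± 0.15), mt-Nd6 (-0.84 ± 0.14) and mt-Rnr1 (-0.79 ± 0.19). The one positive value was that of mt-Nd3 (0.40 ± 0.09, adjusted p = 0.0063, edgeR), which was 0.02 with the length trend removed. The sums of mt-Co2 (-0.08 ± 0.09), mt-Atp6 (-0.13 ± 0.10), mt-Co3 (0.10 ± 0.09) and mt-Nd1 (-0.11 ± 0.11) did not pass. With the length trend removed, where 19.1% of all genes passed, mt-Co2 (-0.43, adjusted p = 0.0054), mt-Atp6 (-0.47, adjusted p = 0.005) and mt-Nd1 (-0.44, adjusted p = 0.0063, edgeR) passed and mt-Co3 (-0.24, adjusted p = 0.08) did not. Of the rows alone 13 passed, among them mt-Co3 at 2.76 ± 0.15 and mt-Co2 at 2.70 ± 0.14. The number for the sums was 7 without P7 sham replicate 3, where 19.1% of all genes passed, 7 without P7 PAB replicate 2, where 24.3% did, and 5 with the Xist class as a term, where 14.5% did. The same 5 genes, mt-Atp8, mt-Nd5, mt-Nd6, mt-Rnr1 and mt-Nd3, passed in these 3 fits.

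The order of levels among the mt genes was read per length, as CPM with copies added per 1000 bases of the gene. In P3 sham it began with mt-Co1 at 30186, followed by mt-Co2 at 19678 and mt-Co3 at 18434, and ended with mt-Rnr2 at 744 and mt-Rnr1 at 263. In P7 sham mt-Co1 at 65135 and mt-Co2 at 43918 again led, and mt-Co3 at 34309.6 and mt-Atp6 at 33733 did not differ beyond the spread of their libraries. The place of mt-Nd5 was the 9th of 15 in both sham groups and the 13th in P7 PAB, where it stood at 8031. In P7 sham its libraries overlapped those of mt-Nd6, mt-Nd2 and mt-Nd4l, the last of which was the 12th, and in P3 sham those of mt-Atp8 and mt-Nd4l. In P7 PAB mt-Nd3 was the 10th, from the 13th in P3 sham and P7 sham, and overlapped its neighbour mt-Nd2 at 11329.

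Among the counts on coding genes with copies added, the complex I genes held 27.6% to 29.1% in P3 sham, 33.7% to 34.4% in P7 sham and 29.1% to 29.9% in P7 PAB. The complex IV genes held 53.9% to 55.8%, 47.0% to 47.8% and 51.5% to 52.4% in the same groups. Those of complex V held 7.09% to 7.39%, 8.09% to 8.52% and 8.61% to 8.92%. Per base, mt-Nd6 counts were 0.301 to 0.349 of those of mt-Cytb in P3 sham, 0.482 to 0.509 in P7 sham and 0.343 to 0.363 in P7 PAB, the ratio of a light strand to a heavy strand gene. The ratio of mt-Nd6 to its neighbour mt-Nd5 was 0.614 to 0.640 in P3 sham, 0.920 to 1.01 in P7 sham and 1.05 to 1.08 in P7 PAB. In P7 PAB the first ratio lay near its P3 range and the second above that of both sham groups. In P3 PAB the first was 0.307 to 0.341 and the second 0.662 to 0.686. The second ratio thus lay above that of sham at P3 too.

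The mt-Atp8 and mt-Atp6 proteins are read from 1 shared message. Per base, mt-Atp8 counts were 13.9, 18.2 and 19.9 times those of the mt-Atp6 row alone in P7 sham, 3.34 and 3.57 times in P7 PAB and 1.21 to 1.37 times at P3. With Gm10925 added to mt-Atp6 the ratio was 0.645 to 0.710 in P7 sham, 0.398 to 0.423 in P7 PAB and 0.483 to 0.532 at P3. The sum thus brought the ratio of these neighbours from a range of 1.21 to 19.9 into one of 0.398 to 0.710.

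The nuclear partners were followed in lists of genes, first the 77 nuclear subunits of complexes I, III, IV and V. In P7 sham against P3 sham 5 of the 77 were called higher and 2 lower, near the 5.62% and 5.73% of all genes, with a median log2 change of 0.09, beside 13 of 13 mt coding genes called higher. In P7 PAB against P7 sham 37 of the 77 were called higher and 0 lower, where 9.63% and 8.59% of all genes were, with a median of 0.57, beside 0 higher and 4 lower of the 13 mt coding genes. In P7 PAB against P3 PAB 45 of the 77 were called higher and 0 lower, where 9.50% and 8.20% of all genes were, with a median of 0.64, beside 12 of the 13 mt coding genes called higher. The mt counts here are those with copies added. The banding comparison shares the P7 sham libraries with the first of these and the P7 PAB libraries with the last. With the length trend removed, 19 of the 77 were called higher and 0 lower in P7 PAB against P7 sham, where 6.24% and 7.05% of all genes were, with a median of 0.30. The same removal gave 20 of the 77 higher and 0 lower in P7 PAB against P3 PAB, where 6.18% and 7.32% of all genes were, with a median of 0.35.

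By complex, 16 of 36 complex I genes, 6 of 9 complex III genes, 9 of 16 complex IV genes and 7 of 17 complex V genes were called higher in P7 PAB against P7 sham, where the background was 9.63% (Ndufa4 is on both the complex I and the complex IV list). Complex II, which has no mitochondrial gene, had 1 of 4, Sdhd (0.74 ± 0.08). With the length trend removed, 6.24% of all genes were called higher. The numbers by complex were then 8, 1, 5 and 5 for complexes I, III, IV and V and 0 for complex II. The small complex V subunit Atp5e was at 137, 123 and 125 CPM in P7 sham and at 304 and 297 CPM in P7 PAB (log2 1.23 ± 0.08). Both P7 PAB libraries lay above all P7 sham libraries and above the P3 libraries, which ranged from 170.0 to 194 CPM.

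The named subunits of complex V were Atp5j2 (1.23 ± 0.09), Atp5e and Usmg5 (1.17 ± 0.08), and those of complex IV were Cox6a1 (1.17 ± 0.15), Cox8a (1.12 ± 0.11) and Cox7a2 (1.09 ± 0.10). Complex III gave Uqcr10 (1.13 ± 0.09), Uqcrh (0.82 ± 0.08) and Uqcrq (0.78 ± 0.10), and complex I gave Ndufa2, Ndufb6 and Ndufb2 at 1.08 ± 0.09, 1.08 ± 0.12 and 1.07 ± 0.10. In P7 sham against P3 sham the called genes were Ndufa1 (0.68 ± 0.07), Ndufa13 (0.62 ± 0.09), Uqcr11 (0.60 ± 0.08), Atp5l (0.61 ± 0.08) and Usmg5 (0.75 ± 0.08) with rises and Cox6a1 (-0.67 ± 0.13) and Cox6b2 (-0.89) with falls. With the length trend removed, 2 genes were higher and 3 lower in that comparison, where 5.53% and 5.92% of all genes were, and Ndufa1 (0.34), Uqcr11 (0.37) and Ndufa13 (0.56) were below the fold threshold. At P3, PAB against sham gave 0 calls in this and in all other lists.

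**Figure D5:**
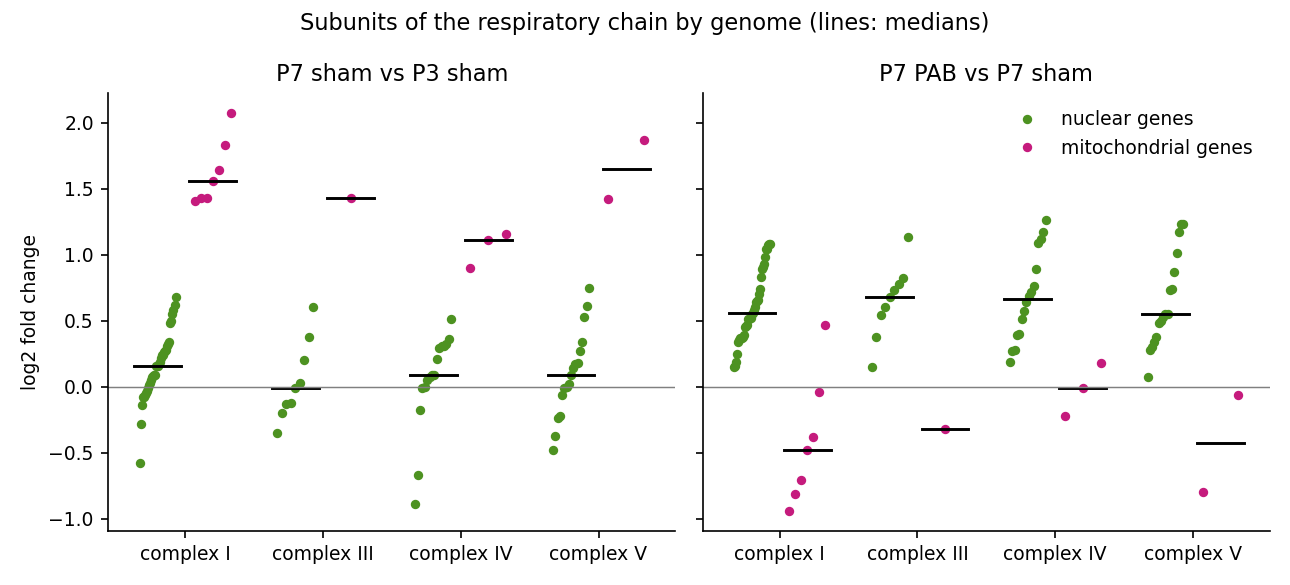
Points are genes, placed by the complex to which their protein belongs and by the genome that encodes them, and the vertical axis is the log2 fold change in P7 sham against P3 sham (left) and in P7 PAB against P7 sham (right), with lines at the medians. Mitochondrial genes are shown with their nuclear copies added. On the left the mitochondrial genes (0.90 to 2.07) lie above the nuclear ones of their complex, and on the right the nuclear medians are 0.56, 0.68, 0.67 and 0.55 for complexes I, III, IV and V.

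The nuclear machinery that copies, reads and processes mitochondrial DNA and RNA was followed in the same comparison, with the background of 9.63% higher and 8.59% lower. Of 10 transcription genes, 1 was called, the elongation factor Tefm (log2 0.71 ± 0.14), which with the length trend removed was at 0.39 and not called. The packaging and initiation factor Tfam was at 0.15 ± 0.09 (adjusted p = 0.21, edgeR) and the RNA polymerase Polrmt at -0.21 ± 0.09 (adjusted p = 0.078, edgeR). Of 11 genes of replication and the nucleoid 0 were called, and the helicase Twnk, listed under its older symbol Peo1, was at -0.45 ± 0.08, below the fold threshold.

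Of 26 genes of RNA processing and stability 1 was called, Slirp, which binds mitochondrial messages together with Lrpprc, a share below the background. Slirp was at 22.1, 16.6 and 18.1 CPM in P7 sham and at 41.0 and 36.2 CPM in P7 PAB (log2 1.03 ± 0.13, adjusted p = 2.0e-05, edgeR). Lrpprc was at -0.11 ± 0.08 (adjusted p = 0.29, edgeR). Between P3 and P7 in sham hearts neither Tfam (-0.16 ± 0.08), Polrmt (-0.09 ± 0.08), Lrpprc (-0.21 ± 0.08) nor Slirp (-0.07 ± 0.12) was called, the comparison in which all 15 mt genes rose with copies added.

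For translation, 20 of 78 genes of the mitochondrial ribosome were called higher and 0 lower in P7 PAB against P7 sham, with a median of 0.45, where 9.63% and 8.59% of all genes were called. They included Mrpl33 (1.13 ± 0.10), Mrpl20 (1.01 ± 0.12) and Mrps18c (0.98 ± 0.10), and with the length trend removed 12 of the 78 were called higher, where 6.24% of all genes were. In P7 sham against P3 sham 2 of the 78 were called, Mrpl39 (0.63 ± 0.07) and Mrpl42 (0.59 ± 0.09), where 5.62% of all genes were called higher and 5.73% lower. Of 17 mitochondrial transfer RNA synthetases 1 was called in each of these comparisons, the glutamyl enzyme Ears2, at 1.21 ± 0.10 in P7 PAB against P7 sham and at -0.70 ± 0.09 in P7 sham against P3 sham. Of 13 translation factors 0 were called in any comparison, and of 19 genes of RNA modification Qtrt1 was called with banding at P7, the transfer RNA methyltransferase Trmt5 (0.85 ± 0.08) with age in sham hearts, and 0 in the other two comparisons.

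Of 12 regulators of mitochondrial biogenesis 3 were called lower and 0 higher in P7 PAB against P7 sham, where 8.59% and 9.63% of all genes were. The coactivator Ppargc1a (PGC-1α) was at 163, 239 and 229 CPM in P7 sham and at 95.1 and 81.5 CPM in P7 PAB (log2 -1.25 ± 0.14, adjusted p = 6.7e-06, edgeR). In P3 sham it was at 101 to 116 CPM, and it rose with age in sham hearts by 0.95 ± 0.12. The fatty acid receptor Ppara followed the same order, at 13.6 to 15.1 CPM in P3 sham, 23.5 ± 2.10 CPM (SD, n = 3) in P7 sham and 11.4 and 10.3 CPM in P7 PAB (log2 -1.11 ± 0.10 with banding at P7). The third was Ppargc1b (-0.69 ± 0.10), which in sham hearts changed by -0.44 ± 0.08 with age, below the fold threshold.

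The tissue label was checked by markers. The 8 cardiomyocyte markers summed to 54488 to 68308 CPM in the 11 libraries. Of other tissues rich in mitochondria, the defining markers Ucp1 and Elovl3 of brown fat and Myh1, Myh4 and Actn3 of skeletal muscle were at or under 1 CPM in every library. The whole skeletal muscle list of 4 markers summed to 1541 to 1804 CPM in P7 sham, 1621 to 1939 CPM in P7 PAB and 1569 to 1913 CPM at P3, nearly all of it from Ckm, a creatine kinase that heart muscle also expresses. The 4 atrial markers, which include the load-responsive gene Nppa, summed to 1422 and 1922 CPM in P7 PAB and to 119 to 167 CPM in P7 sham. The 4 erythroid markers summed to 2373 and 2656 CPM in P7 PAB and to 1580.4 to 2124 CPM in P7 sham, and the 4 endothelial markers to 905 and 1006 CPM and to 1212 to 1274 CPM. The 4 markers of smooth muscle and pericytes summed to 732 and 792 CPM in P7 PAB and to 964 to 1013 CPM in P7 sham, and the 4 brown fat markers to 188 and 191 CPM and to 136 to 161 CPM. Nearly all of the brown fat sum came from its other markers, Cidea and Cox7a1, and Cox7a1 is also on the complex IV list. In P3 sham the sums were 485 to 517 CPM for smooth muscle and pericytes, 989 to 1019 CPM for endothelium and 207 to 309 CPM for the atrial markers, so these lists also differed with age in sham hearts. The part of these differences in the mt values was not tested.

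Among 9217 genes outside the mt rows with a mean of at least 10 CPM, the 3 whose log2 CPM followed the summed mt coding CPM most closely over the 11 libraries were Gm28661 (Pearson r = 0.993), 1810011O10Rik (0.992) and Gm10925 (0.991). The first and the last are the copies of mt-Co2 and mt-Atp6 described above. The values of r describe 11 libraries in 4 groups that differ in age, so they carry no p. The 1810011O10Rik gene was at 27.9 to 31.0 CPM in P3 sham, 28.9 to 32.9 CPM in P3 PAB, 80.4 to 82.6 CPM in P7 sham and 59.7 and 62.8 CPM in P7 PAB.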

How the data were processed

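Total RNA of neonatal mouse hearts was sequenced in 11 libraries. The authors deposited 1 table of raw read counts per gene symbol, made from paired reads aligned with STAR 2.5.2b to GRCm38 (mm10). The counting tool, its strand setting, its treatment of reads with several positions, the annotation release and the selection of RNA are not given in the sources used here. All columns of the table were used, and groups followed the sample labels.

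Counts were tested with edgeR 4.0.16 in R 4.3.3 (TMM normalization, filterByExpr, 1 quasi-likelihood model for the 4 groups, no block), which kept 15808 genes. Calls needed a 1.5-fold change and an adjusted p (Benjamini-Hochberg) up to 0.05, the interaction the adjusted p alone. Nuclear copies were found with BLAST+ 2.17.0 among the GENCODE M21 transcripts, and the fit was repeated on 15798 genes with their counts added to the mt genes. The length trend was a lowess of log2 CPM on exonic length (span 0.3). DESeq2 1.42.0 was an alternative test. Replicates of a group differed by more than counting noise (chi-square per gene 4.17 to 12.18), so none were merged. Replicate numbers did not pair the libraries. Scripts were tested on simulated data. Counting limits cover counting error only.

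Named were all mt genes with counts, copies of at least 1 CPM, in each list the 3 largest called changes of genes of at least 10 CPM with Tfam, Polrmt, Twnk, Lrpprc and Slirp, and the 3 genes most like the mt sum. Cox6b2 and Qtrt1 fall outside this and were named after their values were seen. Members and lists were chosen with earlier results of these data known. Alternatives covered scaling, filters, the fold threshold, the test, gene length, the Xist class, the block, thinning, the 2 groups compared alone and leaving out each library. The fits with copies added under another setting were chosen after seeing the data.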

Additional observations from a re-analysis of the deposited data

Results flagged for a closer look

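The effect of banding differed between P7 and P3 for the following genes, by the interaction of age and operation in edgeR at an adjusted p of at most 0.05, given as log2 values (P7 PAB over P7 sham, less P3 PAB over P3 sham). With each mt row alone, 4 were positive, mt-Co3 at 2.76, mt-Co2 at 2.70, mt-Atp6 at 1.39 and mt-Nd3 at 0.75. The 9 negative ones were mt-Atp8 at -0.88, mt-Nd5 at -0.86, mt-Nd6 at -0.84, mt-Rnr1 at -0.79, mt-Rnr2 at -0.50, mt-Nd4 at -0.46, mt-Nd2 at -0.38, mt-Cytb at -0.34 and mt-Co1 at -0.28. With the length trend removed, the mt-Nd3 row alone was at 0.36 and did not pass (adjusted p = 0.073, edgeR).

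With the nuclear copies added, mt-Nd3 alone was positive, at 0.40. The 10 negative ones were mt-Atp8 at -0.88, mt-Nd5 at -0.86, mt-Nd6 at -0.84, mt-Rnr1 at -0.79, mt-Nd4l at -0.66, mt-Rnr2 at -0.50, mt-Nd4 at -0.48, mt-Nd2 at -0.38, mt-Cytb at -0.34 and mt-Co1 at -0.28. The large positive values of mt-Co3, mt-Co2 and mt-Atp6 were thus values of the rows alone, and their sums with the copies did not pass.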

How the results depend on the processing

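Of 390 alternatives to the 22 summary results, 366 stayed within 1.5 times the main count or within the replicate spread. The cause of the other 24 was not tested. With rows alone, adding the copies gave 0 higher in P7 PAB against P7 sham and 0 lower in P7 sham against P3 sham. It turned mt-Co2 to -0.01 with banding at P7, 1.16 with age in sham hearts and -0.08 in the interaction. It turned mt-Atp6 to -0.06, 1.42 and -0.13 in the same order and to 1.29 in P7 PAB against P3 PAB, and mt-Co3 to 0.90 with age in sham and 1.00 in PAB hearts.

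With the length trend removed, rows alone gave 9 lower in P7 PAB against P7 sham, where 7.05% of all genes were called lower. They gave 5 higher and 2 lower in P7 PAB against P3 PAB, where 6.18% and 7.32% of all genes were. Without the fold threshold the lower calls of these comparisons were 9 and 2. Total count scaling, which moved the median of all genes by -0.31 in P7 sham against P3 sham and -0.25 in P7 PAB against P3 PAB, gave 1 lower in the latter. The Xist class left 8 interaction calls with rows alone, and the share of all genes in that fit is not given here. With copies added, removing the length trend gave 9 lower at P7, where 7.00% of all genes were called lower. It gave 6 higher in P7 PAB against P3 PAB, where 6.14% of all genes were, and mt-Nd4l at -0.09 there. With copies added the Xist class left 5 interaction calls, where 14.5% of all genes passed. Leaving out 1 library gave 7 to 11 interaction calls for the sums (7 without P7 sham replicate 3 or P7 PAB replicate 2) and 5 to 6 lower calls at P7, with all 5 named genes called in 11 of 11 fits. In the 2 fits that leave P7 PAB with 1 library, that library is assumed to vary like the other groups.

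The mean share of counts on mt rows with copies was 15.2% (sham) and 15.2% (PAB) at P3, and 30.1% (sham) and 25.8% (PAB) at P7. The share on mt rows without copies, over a total without ribosomal RNA and copies, was 23.7% in P7 sham and 19.6% in P7 PAB. The share on coding mt rows over all counts was 17.9% in P7 PAB.

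Same-numbered libraries deviated together with correlations of -0.05 to 0.144, so the numbers were not taken as pairs. The replicate block gave 12 higher rows in P7 PAB against P3 PAB in place of 11, and with the length trend removed as well 6 higher and 2 lower there and 9 lower in P7 PAB against P7 sham. P7 PAB had 2 libraries, which limits the precision of its spread.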
